A study of Mus musculus with 8 samples.

Results

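The unstimulated arrays compare CD4 T cells sorted as CD25High with CD4 T cells sorted as CD45High, before any stimulation of the T cell receptor. They were chosen by their labels: no antibody stimulation, either population, either genotype. They make up 4 of the 8 arrays of the series, 1 for each population in each genotype, and the other 4 arrays hold the same populations and genotypes after stimulation through CD3 and CD28 for 30 min.

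The mice were Mir-21 knockouts (KO) and their wild-type littermates (WT), and the cells were sorted from mesenteric lymph nodes. The resting groups are CD25High unstimulated WT, CD25High unstimulated KO, CD45High unstimulated WT and CD45High unstimulated KO, with 1 array each. Total RNA was hybridised to Illumina MouseRef-8 v2.0 bead arrays. No group has a second array, the labels give no age and no number of mice behind a sample, and they do not name the CD45 isoform that was stained. The populations were compared within genotype, which gives a WT pair and a KO pair at rest. The pairing comes from the genotype label, not from shared animals, so the p-values measure the spread between these arrays, of which nothing states how far it is technical.

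CD25 is the product of Il2ra and forms the high-affinity receptor for interleukin-2 together with the beta and gamma chains. At rest it is carried at a high level by regulatory T cells, which are defined by the transcription factor Foxp3 and restrain other immune cells through inhibitory receptors, interleukin-10, adenosine production and consumption of interleukin-2. High staining for the RB isoform of CD45 is commonly used to sort naive conventional CD4 T cells of the mouse, which express the transcription factors Tcf7 and Lef1 and the interleukin-7 receptor. Mir-21 makes a small RNA that pairs with messenger RNAs through its seed, and the KO pair lacks it on both sides of the comparison. Its mature 5p strand is shown because it is what separates the pairs: RefSeq places it on the minus strand of chr11:86584120-86584141 in GRCm38.p6, with the seed, bases 2 to 8, in capitals.
mmu-miR-21a-5p: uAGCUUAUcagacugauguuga

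The mature strand has no probe in this comparison, and whether the probes of the overlapping gene Vmp1 lie in the deleted part is stated in none of the labels. The Vmp1 probe ILMN_2861787 read 4.61 and 6.41 in CD25High cells, WT first, and 4.40 and 5.53 in CD45High cells, in log2 intensity. It was detected on the KO array of each population and not on the WT array, which separates the genotypes but not the populations, whose difference was not called (adjusted p 0.0616 by limma). Another Vmp1 probe, ILMN_2767635, read 8.72 and 9.26 in CD25High cells and 7.94 and 8.49 in CD45High cells and was higher in CD25High cells by 0.78 (SE 0.13, adjusted p 0.00381). Both probes read higher on the KO array than on the WT array of each population. Of their differences between the populations, only that of ILMN_2767635 was called.

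On the resting arrays 10410 and 10477 probes were detected in CD25High cells and 9644 and 9754 in CD45High cells at a detection p under 0.01. Each probe was read from 38 or 39 beads at the median. Beads are readings within 1 array and do not stand in for a second array of a group. Probes detected on at least 2 of the 4 resting arrays were tested, which were 10405 probes of 7692 genes. A probe could pass through the arrays of 1 population alone, so counts over tested members of a list are descriptions. Listed genes that were not tested had no probe under their symbol or were detected on fewer than 2 resting arrays. Every difference below is CD25High minus CD45High in log2 intensity, the mean of both pairs, with limma's moderated standard error (SE, n = 2 pairs) and a p-value adjusted by Benjamini-Hochberg over all probes tested. That SE draws mostly on the variance of all probes, with 7.19 prior degrees of freedom against 1 residual, and is not the spread of a single gene. The residual is the disagreement of the WT and KO pairs, so any effect of genotype on the difference is part of the error. Where levels are joined by "and", the WT array comes first. A probe is called at an adjusted p under 0.05.

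The populations differed widely at rest. Of the probes tested, 1059 were higher in CD25High cells (10.2%) and 863 lower (8.29%), together 1922 (18.5%). Most of these differences were small, since 1430 of the calls were under 2-fold. At least 2-fold were 360 higher and 132 lower calls, and at least 4-fold were 91 and 15, so the large differences lay mostly on the CD25High side. Differences of at least 2-fold in both pairs were found for 270 probes higher in CD25High cells (2.59%) and 90 lower (0.865%), and by gene for 230 (2.99%) and 69 (0.897%). All 1922 calls had the same sign in both pairs, which a test on 2 pairs with 1 residual degree of freedom nearly requires. Counted per gene by its brightest probe, 872 of 7692 genes were higher (11.3%) and 626 lower (8.14%), with a median over all genes of -0.03. In a fit with error estimated from all 8 arrays, called the 8-array fit here, the calls at rest fell to 263, of which 197 were higher and 66 lower. That fit includes the stimulated KO CD25High array, which correlates with the resting arrays at a median of 0.873 where the other stimulated arrays reach 0.924 to 0.961. Its part in the lower count was not tested, because without it the error again comes from the resting pairs alone, with 1 residual degree of freedom. In the lists below, counts of higher members are to be read against 11.3% of all genes tested and counts of lower members against 8.14%. Fits that leave out a resting array are not paired by genotype, so they lose the pairing as well as an array.

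The split between higher and lower depends on the scaling of the arrays. It was 55.1% higher in the quantile-normalized values and 81.0% higher without normalization between arrays, where 1069 probes were higher and 250 lower. The median difference over all probes tested moved from -0.04 to 0.10 between these scalings. All differences given here are relative to the quantile-normalized median.

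**Figure D1:**
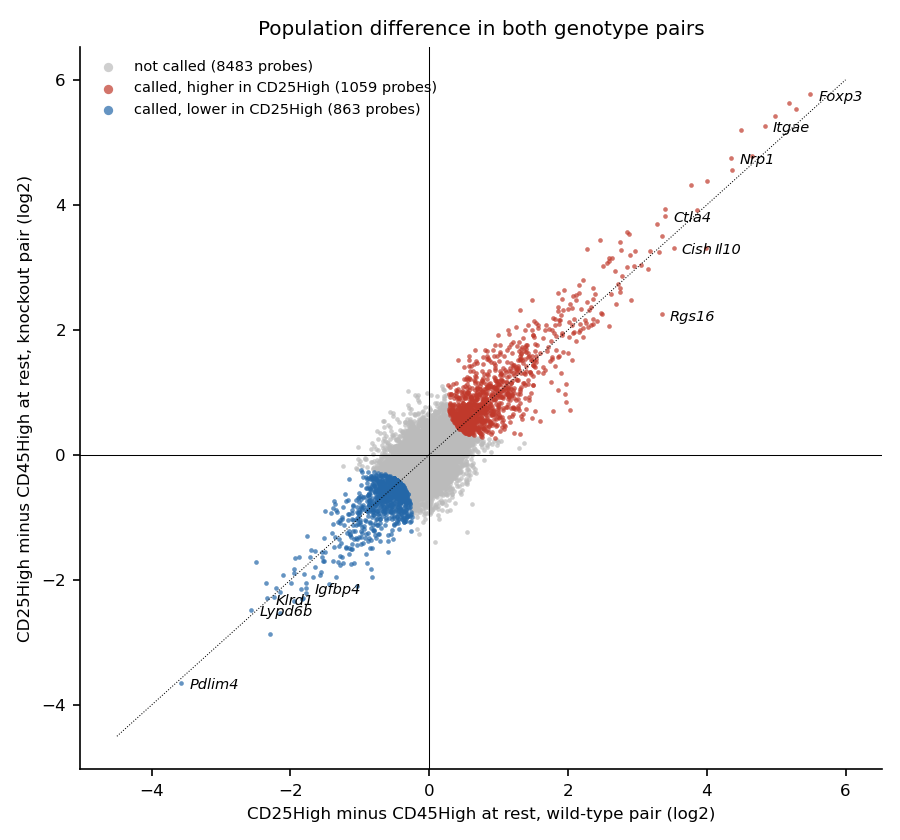
The CD25High minus CD45High difference at rest in the WT pair (x axis, log2) is plotted against that in the KO pair (y axis, log2), 1 point per probe tested, with called probes in red (1059, higher) and blue (863, lower) and the dotted line marking equal differences. Foxp3 lies at the upper end and Pdlim4 at the lower end, both close to the line, while Rgs16 lies off it toward the WT pair.

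The WT and KO pairs, which share no array, gave differences that correlated at 0.823 over the 10405 probes, a description over probes that are not independent. Over all probes tested 71.6% had the same sign in both pairs.

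The sort was checked with genes that define the populations. Foxp3, the lineage factor of regulatory T cells, read 11.10 and 11.24 in CD25High cells and 5.61 and 5.47 in CD45High cells with probe ILMN_2635132. The difference was 5.63 (SE 0.13, adjusted p 4.9e-07), or 49.4-fold. The other Foxp3 probes were not well above background in CD45High cells and were at least 20.9-fold and 36.6-fold higher in CD25High cells (adjusted p 5.55e-07 for each). Such a bound sets the bright mean against the lowest detected signal of the dim arrays, or the dim probe's own value where that is higher, and a fitted difference is not given for these probes. Of other genes named below, LOC100044439, Socs1, Ifng, Nr4a2, Nfkb2, Tk1 and Fcer1g were detected on 1 of the 2 CD45High arrays, and Pim2 and Il21 on 1 of the 2 CD25High arrays, so their differences take in 1 value at background. Il2ra, which encodes the sorted antigen, read 8.28 and 8.61 in CD25High cells and was not detected on either CD45High array, a difference of at least 11.9-fold (adjusted p 2.6e-06). The CD25High sort is thus matched by its own transcript and by Foxp3 on both arrays.

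Lef1, a transcription factor of naive T cells, went the other way on both of its probes. The brighter one read 8.44 and 8.54 in CD25High cells and 9.68 and 9.37 in CD45High cells, a difference of -1.04 (SE 0.15, adjusted p 0.00186), and the other differed by -1.19 (SE 0.15, adjusted p 0.00101). Neither Lef1 probe was called under the 8-array fit (adjusted p by limma 0.26 for the brighter one and 0.322 for the other). The genes of the CD3 complex, which every T cell carries, did not pass the test: Cd3g differed by -0.13, Cd3d by -0.06 and Cd3e by 0.01 (SE 0.13 for each). Cd4 was lower in CD25High cells, with a difference of -0.47 (SE 0.13, adjusted p 0.0411) and levels of 6.48 and 6.73 in CD25High cells and 7.08 and 7.08 in CD45High cells. In RNA from bulk samples like these, fewer cells that express a gene and less RNA per cell cannot be told apart.

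Transcripts of other cells were present and were not equal between the populations. All 13 tested of 20 B cell markers were higher in CD25High cells, against 11.3% of all genes tested, with a median difference of 1.14. Cd79b, a chain of the B cell receptor complex, read 9.03 and 9.08 in CD25High cells and 7.10 and 7.44 in CD45High cells. Cd74, the invariant chain of class II presentation, read 10.90 and 10.79 in CD25High cells and 9.0 and 9.49 in CD45High cells. The class II genes H2-Ab1, H2-Eb1 and H2-Aa differed by 1.46, 1.45 and 1.16, and the kinase gene Blk by 1.23 (adjusted p 0.000352 to 0.00174 for these 4). No B cell marker tested had overlapping groups, a description only, since the share of all genes tested without overlap is not given here. Summed over the 13 markers on the linear scale, the intensity was 5760 and 5400 in CD25High cells and 1937 and 2596 in CD45High cells. The defining B cell genes Ms4a1, Pax5, Ebf1, Jchain and Cr2 were detected on at most 1 of the 4 arrays. The count of 13 was 4 under the 8-array fit and 7 to 11 when each resting array was left out in turn.

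Among 7 tested of 19 myeloid and dendritic cell markers, Fcer1g, Lyz2 and Cst3 were higher in CD25High cells and Siglech lower. The Siglech call was absent under the 8-array fit. Fcer1g, a signalling chain shared by Fc receptors, had the widest gap, with 6.95 and 7.28 in CD25High cells and 4.88 and 5.33 in CD45High cells. The summed intensity of the 7 was 2421 and 2434 in CD25High cells and 1381 and 1901 in CD45High cells, while S100a8, S100a9, Csf1r, Itgam, Itgax and Cd14 were each detected on at most 1 resting array. The 3 higher calls were 1 under the 8-array fit and 1 to 2 when each resting array was left out in turn. Of 4 tested markers of CD8 T and NK cells, Nkg7 and Cd160 were higher, Klrd1 lower and Cd8b1 not called, and Cd8a was not detected on any resting array. Under the 8-array fit Klrd1 alone of these was called. Their summed intensity was 1402 and 1545 in CD25High cells and 1346 and 1307 in CD45High cells. The single tested markers of red cells (Hba-a1) and of stroma or vessels (Pecam1) were not called. The part that these other cells have in the differences reported here was not tested.

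The genes furthest above CD45High cells were, for the most part, known regulatory T cell genes. Of a list of 30 such genes 24 were tested and all 24 were higher in CD25High cells, against 11.3% of all genes tested, with a median difference of 2.80. The list was chosen as markers of these cells with results of these data known, so its direction is not independent evidence. Entpd1 and Plagl1 were not tested, and Ikzf4, Tigit, Lrrc32 and Penk had no probe under these symbols. The count was 20 under the 8-array fit. Socs2, an inhibitor of cytokine receptor signalling, read 10.20 and 10.38 in CD25High cells and 4.91 and 4.85 in CD45High cells, a difference of 5.41 (SE 0.13, adjusted p 4.9e-07). Itgae, the alpha chain of CD103 that binds E-cadherin on epithelium, read 10.79 and 11.27 in CD25High cells and 5.96 and 6.02 in CD45High cells with its most different probe, a difference of 5.05 (SE 0.15, adjusted p 5.55e-07). Nrp1, a receptor for semaphorins found on regulatory T cells that arise in the thymus, read 10.43 and 10.54 in CD25High cells and 6.08 and 5.80 in CD45High cells. Ikzf2, which encodes the transcription factor Helios, read 8.54 and 8.98 in CD25High cells and 5.14 and 5.05 in CD45High cells. The groups did not overlap for any of these 4 genes, which nearly follows from their place among the largest differences.

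The other genes among the 15 furthest above CD45High cells included surface receptors and feedback regulators. Tnfrsf4, the costimulatory receptor OX40, read 11.31 and 11.59 in CD25High cells and 7.95 and 8.09 in CD45High cells. Cd83, a membrane glycoprotein of activated lymphocytes, B cells included, read 9.31 and 9.41 in CD25High cells and 6.13 and 6.14 in CD45High cells. Axl, a receptor tyrosine kinase that recognises dying cells through Gas6, read 8.71 and 9.26 in CD25High cells and 5.83 and 5.73 in CD45High cells. These differences were 3.43 (SE 0.13), 3.23 (SE 0.13) and 3.21 (SE 0.17). Rgs1, which shortens signalling from G protein-coupled chemokine receptors, differed by 3.49 (SE 0.14, adjusted p 3.45e-06). Gm4956 and the unnamed transcript LOC100044439 differed by 5.20 and 3.28, and neither is given a role in the tables used here.

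**Figure D2:**
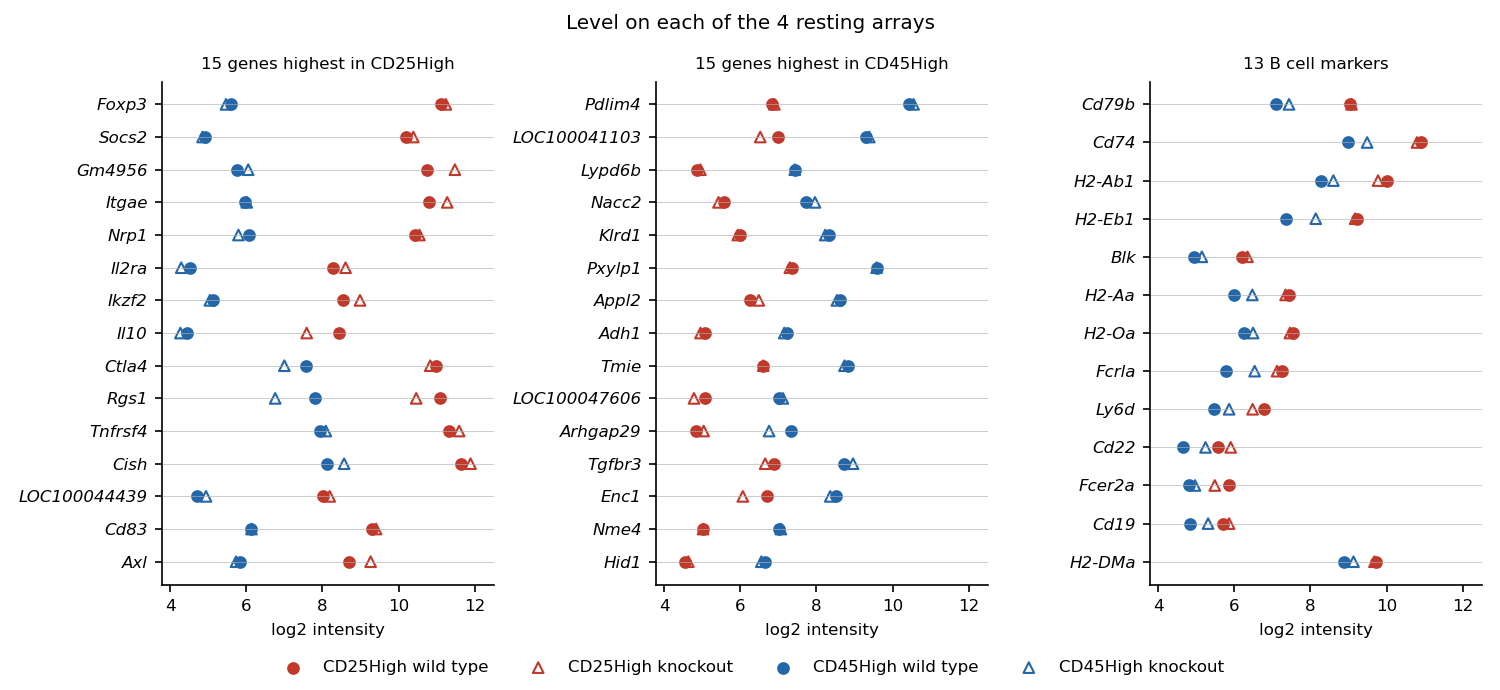
Log2 intensity (x axis) on each of the 4 resting arrays is shown for the 15 genes highest in CD25High cells, the 15 highest in CD45High cells and the 13 tested B cell markers, with filled circles for WT, open triangles for KO, red for CD25High and blue for CD45High. Red and blue symbols do not overlap for any gene shown. For the genes highest in either population this nearly follows from their choice by size. The gap is wider for Foxp3 (5.63) than for Cd79b (1.79).

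Genes through which regulatory T cells suppress were mostly higher. Of 10 tested of 15 such genes 8 were higher in CD25High cells, against 11.3% of all genes, and none lower, with a median of 1.59. The count was 5 under the 8-array fit and 5 to 8 when each resting array was left out in turn. Il10, which encodes the inhibitory cytokine interleukin-10, read 8.45 and 7.59 in CD25High cells and was not detected in CD45High cells, at least 8.87-fold apart (adjusted p 6.77e-06). Its KO array lay below its WT array within CD25High cells. Ebi3, a subunit of interleukin-35 and interleukin-27, read 6.84 and 6.81 and was at least 3.89-fold above the undetected level in CD45High cells (adjusted p 1.31e-05). Nt5e, the ectoenzyme CD73 that makes adenosine, differed by 2.13 (SE 0.13, adjusted p 1.93e-05), and Lgals1, the lectin galectin-1, by 1.05 (SE 0.16, adjusted p 0.00284). Lgals1 was not called under the 8-array fit (adjusted p by limma 0.123). Prf1, the pore protein of cytotoxic granules, and Gzmk, a granule protease, differed by -0.54 and -0.34 and were not called (adjusted p 0.115 and 0.157). Prf1 levels were 7.73 and 9.23 in CD25High cells and 8.76 and 9.28 in CD45High cells, so its groups overlapped.

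Inhibitory and costimulatory receptors of the CD28 family and related genes showed 8 of 12 tested members higher and none lower, with a median of 0.92. Ctla4, which captures the CD28 ligands, read 10.98 and 10.83 in CD25High cells and 7.58 and 7.0 in CD45High cells, a difference of 3.62 (SE 0.15, adjusted p 3.06e-06). Lag3, an inhibitory receptor for class II molecules, read 8.61 and 8.99 in CD25High cells and 6.34 and 5.69 in CD45High cells, with a wider gap in the KO pair (3.29) than in the WT pair (2.27). Icos, a costimulatory receptor of the same family, differed by 1.22 (SE 0.13, adjusted p 0.000473). Cd160 and Cd200, both receptors or ligands of inhibition, differed by 1.51 and 0.93. Cd86, a ligand of CD28 and CTLA-4 that B cells also carry, differed by 1.01. Cd28 itself differed by -0.33 and Cd274, which encodes PD-L1, by 0.35, neither called (adjusted p 0.107 and 0.12). The count of 8 was 3 under the 8-array fit and 5 to 7 when each resting array was left out in turn.

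Within the TNF receptor family and its ligands and adaptors, 9 of 19 tested members were higher and 1 lower, with a median of 0.38. Beside Tnfrsf4, the glucocorticoid-induced receptor gene Tnfrsf18 differed by 2.08 (SE 0.13, adjusted p 2.33e-05) and Tnfrsf9, which encodes 4-1BB, by 1.97 (SE 0.21, adjusted p 0.000492). Tnfrsf1b, the second TNF receptor, read 6.05 and 5.68 in CD25High cells and was not detected in CD45High cells, at least 1.99-fold apart (adjusted p 0.00188). The ligand genes Lta and Tnfsf11 differed by 1.56 and 1.05. Tnfrsf1a, the first TNF receptor, differed by -0.45 and Tnfsf14 by 0.38, neither called (adjusted p 0.134 and 0.0938). The lower member was Tnfrsf26, named after its value was seen, with -0.62 (SE 0.13). Its call was absent under the 8-array fit, without normalization between arrays and without the genotype block. The count of 9 was 4 under the 8-array fit and 5 to 7 when each resting array was left out in turn.

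Genes of interleukin-2 reception, of its transcription factor STAT5 and of the SOCS inhibitors that STAT5 induces differed in part. Of 17 tested, 8 were higher and 1 lower, with a median of 0.49. The receptor chains that moved were Il2ra and Il2rb, and Il2rb, the beta chain, read 5.94 and 6.79 in CD25High cells and was at least 2.82-fold above the undetected level in CD45High cells (adjusted p 0.000246). Among feedback inhibitors, Cish read 11.63 and 11.88 in CD25High cells and 8.11 and 8.57 in CD45High cells, a difference of 3.42 (SE 0.13, adjusted p 2.52e-06). Socs1, another inhibitor of the family, differed by 0.49 and was not called (adjusted p 0.142), with its WT arrays nearly level at 5.07 and 5.05. Pim1, a survival kinase that cytokines induce, differed by 1.31 (SE 0.13, adjusted p 0.000298), and Bcl2, which blocks apoptosis, by 0.91 (SE 0.13, adjusted p 0.0019). Neither Pim1 nor Bcl2 was called under the 8-array fit (adjusted p by limma 0.686 and 0.0918). Osm, a cytokine of the interleukin-6 family that STAT5 can induce, differed by 0.31 and was not called. The lower member was Pim2, named after its value was seen, with -0.57 (SE 0.16). Its call was absent under the 8-array fit, without normalization between arrays and without the genotype block. The count of 8 was 4 under the 8-array fit and 5 to 9 when each resting array was left out in turn.

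Promoters of Cish and Foxp3 are shown because both genes lie among the 15 furthest above CD45High cells and both promoters hold the letters TTCNNNGAA, the core that STAT factors are known to bind. The genes and the motif were chosen after the values were seen. The motif reads the same on both strands, it was searched in RefSeq promoters of GRCm38.p6 from 250 bases before to 50 bases after the start, and its matches are in capitals. The Cish promoter is on the plus strand of chr9:107296409-107296708 and the Foxp3 promoter on the plus strand of chrX:7580233-7580532.
Cish: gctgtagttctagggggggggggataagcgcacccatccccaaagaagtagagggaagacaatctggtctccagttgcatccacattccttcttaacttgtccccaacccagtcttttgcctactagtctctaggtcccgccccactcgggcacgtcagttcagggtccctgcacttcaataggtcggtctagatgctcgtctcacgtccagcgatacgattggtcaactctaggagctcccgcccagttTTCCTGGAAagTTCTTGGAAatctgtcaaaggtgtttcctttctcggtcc
Foxp3: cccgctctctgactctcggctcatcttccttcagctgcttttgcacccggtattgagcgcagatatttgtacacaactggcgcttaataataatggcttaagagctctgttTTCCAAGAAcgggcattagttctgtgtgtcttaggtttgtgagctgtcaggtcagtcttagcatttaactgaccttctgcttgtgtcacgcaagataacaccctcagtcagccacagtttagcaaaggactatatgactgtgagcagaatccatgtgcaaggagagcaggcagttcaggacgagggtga
Cish held 2 matches and Foxp3 held 1. The motif occurred in 8.3% of all 32851 promoters of the table. By gene it occurred in 8.59% of the 6006 tested genes with a promoter there, in 10.9% of 668 genes with a probe called higher in CD25High cells and in 8.98% of 579 with a probe called lower. Of the 8 interleukin-2 and STAT5 genes called higher, 5 had a promoter in the table and Cish alone held the motif. A match describes letters in this window and is not evidence of binding.

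Receptors that guide T cells between tissues diverged in both directions. Of 18 tested homing genes, 7 were higher and 3 lower, with a median of 0.07. Ccr6, the receptor for the mucosal chemokine CCL20, read 9.15 and 9.65 in CD25High cells and 6.18 and 6.39 in CD45High cells, a difference of 3.11 (SE 0.14, adjusted p 4.19e-06). Ccr8, a receptor of regulatory and type 2 helper cells in tissues, was not detected in CD45High cells and was at least 2.67-fold higher in CD25High cells (adjusted p 9.17e-05). Cxcr5, which leads into B cell follicles and which B cells also carry, read 8.18 and 8.94 in CD25High cells and 7.52 and 7.25 in CD45High cells, with a larger gap in the KO pair. Cd44, an adhesion receptor of antigen-experienced cells, differed by 1.09 (SE 0.19, adjusted p 0.00557). Cxcr4 and Itgav differed by -0.34 and 0.32 and were not called. The lower members, named after their values were seen, were the G protein-coupled receptors Gpr18, Gpr183 and S1pr4, with -0.60, -0.65 and -0.69. These 3 calls were all absent without normalization between arrays and under the 8-array fit, and there were 0 to 2 lower calls when each resting array was left out in turn. The count of 7 higher was 4 under the 8-array fit and 4 to 7 when each resting array was left out in turn.

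Transcription factors of helper lineages were higher in 7 of 16 tested and lower in 2, with a median of 0.26. Bhlhe40, a repressor induced by T cell receptor signals, read 8.04 and 7.48 in CD25High cells and 5.65 and 4.91 in CD45High cells, a difference of 2.48 (SE 0.13, adjusted p 1.23e-05). Irf4, a factor that mature effector and regulatory cells need, read 8.81 and 8.89 in CD25High cells and 7.68 and 6.89 in CD45High cells, a difference of 1.57 (SE 0.20, adjusted p 0.00103). Rora, a nuclear receptor of helper and innate lymphoid cells, differed by 1.16, and Hif1a, the oxygen-responsive factor, by 0.80. Gata3, the factor of type 2 helper cells, and Bcl6, that of follicular helper cells, differed by 0.43 and -0.39 and were not called (adjusted p 0.0521 and 0.0708). The lower members, named after their values were seen, were Runx1 (-0.48) and Id2 (-0.52). Neither was called under the 8-array fit or without normalization between arrays. The count of 7 was 2 under the 8-array fit and 4 to 5 when each resting array was left out in turn.

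Among 18 tested cytokine and effector genes 8 were higher and 2 lower, with a median of 0.24. The higher members were mostly receptors. Il10ra, the interleukin-10 receptor chain, read 7.87 and 8.09 in CD25High cells and 6.10 and 6.56 in CD45High cells, a difference of 1.65 (SE 0.13, adjusted p 8.98e-05), and Ifngr1, the interferon-gamma receptor, differed by 1.15 (SE 0.15, adjusted p 0.00127). Il1r2, a decoy receptor for interleukin-1, was not detected in CD45High cells and was at least 1.49-fold higher in CD25High cells (adjusted p 0.000707). Ifng and Ccl5, made by effector cells, differed by 0.24 and 0.24 and were not called (adjusted p 0.278 and 0.235). The lower members were Il4 (-0.63) and Il21 (-0.79), named after their values were seen. Neither was called under the 8-array fit or without the genotype block. Il4 read 4.98 and 5.15 in CD25High cells and 5.95 and 5.43 in CD45High cells and Il21 4.59 and 4.99 in CD25High cells and 5.17 and 5.99 in CD45High cells, so both lay near the dim end of the arrays. The count of 8 was 1 under the 8-array fit and 4 to 7 when each resting array was left out in turn.

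The immediate early genes, which T cell receptor signals induce within minutes, were higher in 10 of 30 tested, against 11.3% of all genes, and lower in 1, with a median of 0.28. In unpaired fits that median was -0.09 without the WT CD25High array and 0.72 without the KO CD25High array. It was 0.48 without the WT CD45High array and 0.07 without the KO CD45High array. Dusp4, a phosphatase of MAP kinases, read 7.13 and 6.60 in CD25High cells and was not detected in CD45High cells, at least 3.99-fold apart (adjusted p 1.45e-05). Several members also moved with genotype. Gadd45b, a stress sensor, read 9.56 and 7.37 in CD25High cells and 8.39 and 6.84 in CD45High cells, so its KO arrays were below its WT arrays in both populations and the WT array of CD45High cells lay above the KO array of CD25High cells. Its population difference of 0.85 (SE 0.17, adjusted p 0.00978) rested on the pairing. Without the WT CD25High array it was -0.25 in an unpaired fit, which sets the KO CD25High array against both CD45High arrays. Within the KO pair the CD25High array lay above the CD45High array. Nfkbia, the inhibitor of NF-κB, read 11.49 and 10.16 in CD25High cells and 10.59 and 9.64 in CD45High cells, with the same overlap. Dusp10 was the lower member (-0.65), and Nr4a2 and Egr2, receptor-induced transcription factors, were not called at 0.77 and 0.36. The Dusp10 call was absent under the 8-array fit, without normalization between arrays and without the genotype block. The count of 10 was 2 under the 8-array fit and 2 to 4 when each resting array was left out in turn, and 2 without the genotype block.

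The NF-κB list, which shares Nfkbia, Nfkbiz and Tnfaip3 with the list above, had 9 of 16 tested members higher and none lower, with a median of 0.49. No difference in it exceeded 0.77. Nfkb2, a subunit of the alternative pathway, differed by 0.77 (SE 0.15, adjusted p 0.00911), Relb, its partner, by 0.68 (SE 0.13, adjusted p 0.00839), and Tnip1, a brake on the pathway, by 0.68 (SE 0.13, adjusted p 0.00766). Nfkbie and Ikbkb, an inhibitor and a kinase of the pathway, differed by 0.46 and -0.24 and were not called. The count of 9 was 0 under the 8-array fit and 0 to 4 when each resting array was left out in turn.

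RGS proteins, which switch off G proteins downstream of chemokine receptors, were higher in 4 of 6 tested members and lower in 1, with a median of 0.64. Rgs16 read 9.11 and 7.34 in CD25High cells and 5.76 and 5.10 in CD45High cells, a difference of 2.80 (SE 0.23, adjusted p 0.000103) that was larger in the WT pair (3.35) than in the KO pair (2.25). Rgs3 and Rgs10 differed by 0.70 and 0.58, Rgs14 by -0.67 and Rgs19 by 0.03. The Rgs14 call was absent without normalization between arrays and under the 8-array fit. The count of 4 was 2 under the 8-array fit and 1 to 3 when each resting array was left out in turn.

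Cell cycle genes were higher in 13 of 26 tested members and lower in 1, with a median of 0.43. Tk1, a thymidine kinase of S phase, read 7.08 and 7.0 in CD25High cells and 4.86 and 5.12 in CD45High cells, a difference of 2.05 (SE 0.14, adjusted p 3.48e-05) with detection on 1 of the 2 CD45High arrays. Uhrf1, which maintains DNA methylation at replication, differed by 1.41 (SE 0.13, adjusted p 0.000164), Birc5, which encodes survivin of mitosis, by 1.25 (SE 0.15, adjusted p 0.00088), and Top2a, topoisomerase II alpha, by 1.0 (SE 0.13, adjusted p 0.00101). Tyms and Mcm6, of nucleotide synthesis and replication licensing, differed by 1.12 and 1.03. The mitotic kinase gene Plk1 differed by 0.42 and was not called (adjusted p 0.0544), and the cyclin gene Ccnb1 was not detected in CD45High cells and not called. Cdkn1b, the inhibitor p27, was the lower member with -0.71, named after its value was seen. Its call was absent under the 8-array fit, without normalization between arrays and without the genotype block. The count of 13 was 3 under the 8-array fit and 6 to 11 when each resting array was left out in turn.

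Genes of the cytoskeleton and of the S100 and annexin families that mark experienced T cells were higher in 7 of 18 tested members, and 1 was lower, with a median of 0.28. Capg, an actin capping protein, read 10.01 and 10.39 in CD25High cells and 7.38 and 7.24 in CD45High cells, a difference of 2.89 (SE 0.15, adjusted p 1.31e-05). Ahnak, a large scaffold under the membrane, differed by 2.23 (SE 0.14, adjusted p 2.67e-05), the calcium-binding S100a6 by 1.87 (SE 0.14, adjusted p 5.38e-05) and Anxa2 by 1.16 (SE 0.14, adjusted p 0.00101). Vim and S100a10 were not called at 0.38 and 0.33. The lower member was Tln1, talin, named after its value was seen, with -0.51. Its call was absent under the 8-array fit, without normalization between arrays and without the genotype block. The count of 7 was 3 under the 8-array fit and 5 to 7 when each resting array was left out in turn.

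In the BCL2 family and apoptosis list 5 of 13 tested members were higher and none lower, with a median of 0.27. They were of both kinds: Bcl2, Bcl2l1 and Bcl2l2 oppose apoptosis, and Bid and Fas promote it. Bcl2l2 differed by 1.20 (SE 0.18, adjusted p 0.00271) and Bid by 0.81 (SE 0.16, adjusted p 0.00872), and Bcl2l1 was at least 1.85-fold above its undetected level in CD45High cells (adjusted p 0.00101). Bad and Bbc3, which promote apoptosis, were not called at 0.49 and -0.32. Of 6 tested GIMAP genes, GTPases of lymphocyte survival, Gimap7 (0.77) and Gimap5 (0.50) were higher, and Gimap1 and Gimap6 were not called at 0.23 and -0.21. Neither family had a call under the 8-array fit. When each resting array was left out in turn, the BCL2 family had 1 to 4 higher calls and the GIMAP genes 0 to 2.

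**Figure D3:**
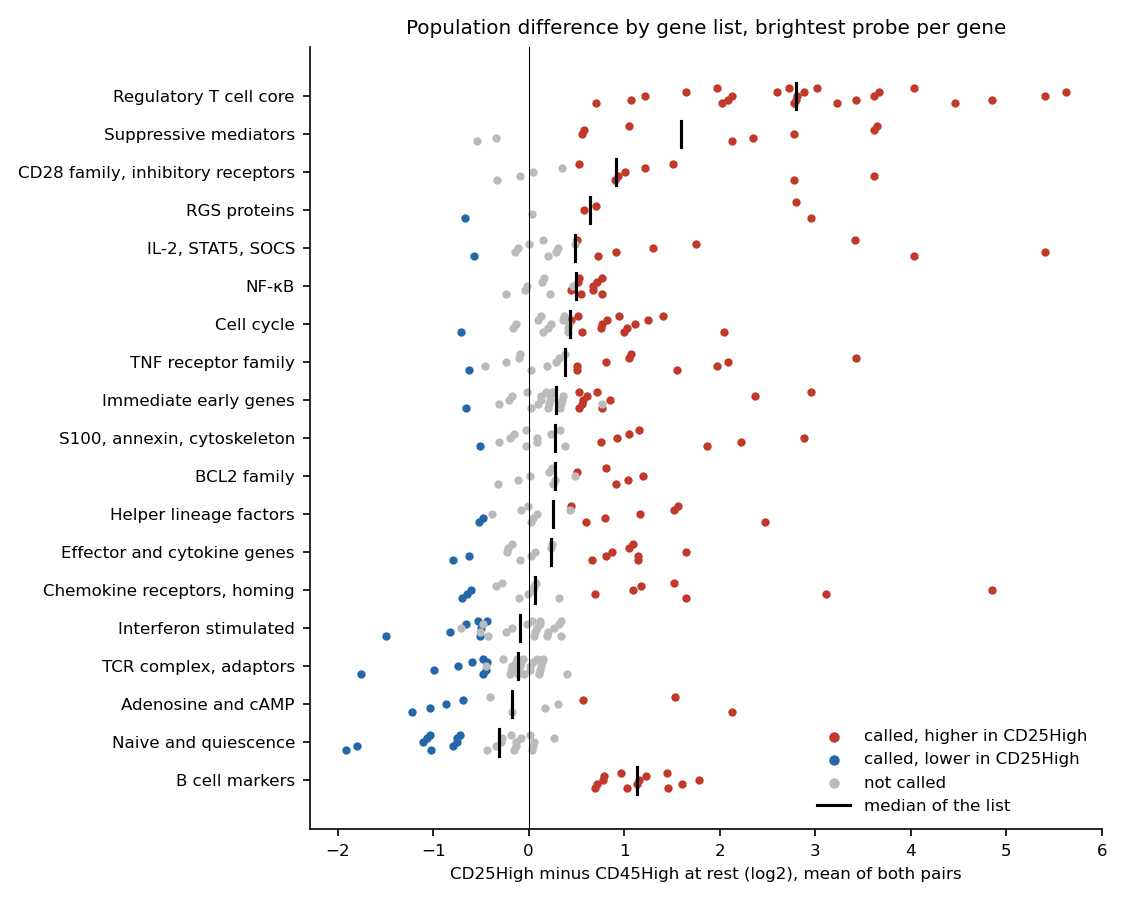
The CD25High minus CD45High difference at rest (x axis, log2, mean of both pairs) is shown for each tested gene of 19 lists, 1 point per gene by its brightest probe, red where called higher, blue where called lower and grey where not called, with a black bar at the median of each list. All 24 points of the regulatory T cell list lie to the right of 0, the naive and quiescence list has 10 blue points and no red one, and the B cell markers lie between 0.69 and 1.79.

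The genes higher in CD45High cells included those of naive and quiescent T cells. Of 24 tested such genes 10 were lower in CD25High cells, against 8.14% of all genes, and none higher, with a median of -0.31. Igfbp4, a binding protein of insulin-like growth factors found in naive T cells, read 10.25 and 10.20 in CD25High cells and 12.03 and 12.25 in CD45High cells, a difference of -1.92 (SE 0.13, adjusted p 4.39e-05). Dapl1 read 6.54 and 6.20 in CD45High cells and was not detected in CD25High cells, at least 3.2-fold lower there (adjusted p 6.26e-05). Tcf7, the partner of Lef1 in naive and memory cells, differed by -1.06 (SE 0.13, adjusted p 0.000984), the interleukin-7 receptor gene Il7r by -1.02 (SE 0.13, adjusted p 0.000959) and the actin crosslinker Actn1 by -1.11 (SE 0.13, adjusted p 0.000891). Il7r read 9.53 and 9.80 in CD25High cells and 10.53 and 10.83 in CD45High cells, without overlap. Bach2, a repressor that holds effector programs back, and Tob1, which limits proliferation, were not called at -0.44 and -0.34 (adjusted p 0.0511 and 0.136). The lower calls were 3 under the 8-array fit and 5 to 11 when each resting array was left out, and 9 without normalization between arrays.

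The largest single difference toward CD45High cells lay outside that list. Pdlim4, an adaptor of the actin cytoskeleton with PDZ and LIM domains, read 6.84 and 6.90 in CD25High cells and 10.42 and 10.55 in CD45High cells, a difference of -3.61 (SE 0.13, adjusted p 1.57e-06), or 12.2-fold. Klrd1, which encodes CD94 of an NK cell receptor, read 5.98 and 5.94 in CD25High cells and 8.32 and 8.23 in CD45High cells, a difference of -2.32 (SE 0.13, adjusted p 1.36e-05). Nacc2, a transcriptional repressor with a BTB domain, differed by -2.34 (SE 0.14, adjusted p 2.2e-05) and Lypd6b, a membrane-anchored protein of the Ly6 family, by -2.52 (SE 0.13, adjusted p 9.55e-06). Tgfbr3, betaglycan that presents TGF-β to its receptors, read 6.88 and 6.65 in CD25High cells and 8.71 and 8.96 in CD45High cells, a difference of -2.07 (SE 0.15, adjusted p 5.38e-05). None of these 5 genes had overlapping groups, which nearly follows from their choice by size.

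The remaining genes of the 15 furthest toward CD45High cells have various roles. Pxylp1, a phosphatase of proteoglycan synthesis, differed by -2.25, and Appl2, an endosomal adaptor, by -2.20. Adh1, an alcohol dehydrogenase, differed by -2.17, and Tmie, a membrane protein of the inner ear's transduction channel, by -2.17. Arhgap29, a GTPase-activating protein, Enc1, an actin-binding kelch protein, and Nme4, a mitochondrial nucleotide kinase, differed by -2.10, -2.06 and -2.01. Hid1 was not detected in CD25High cells and was at least 3.76-fold lower there (adjusted p 2.83e-05). The unnamed transcripts LOC100041103 and LOC100047606 differed by -2.58 and -2.14. The SE of these genes was between 0.13 and 0.18.

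The T cell receptor complex and its adaptors had 8 of 31 tested members lower, against 8.14% of all genes, and none higher, with a median of -0.11. Themis, which sets the signalling threshold during T cell selection, read 5.20 and 5.63 in CD25High cells and 7.08 and 7.26 in CD45High cells, a difference of -1.75 (SE 0.13, adjusted p 6.65e-05). The adaptor gene Grap2 differed by -0.99 (SE 0.18, adjusted p 0.00781) and Cd247, the zeta chain, by -0.59 (SE 0.16, adjusted p 0.0323). Cd247 read 10.48 and 9.74 in CD25High cells and 10.81 and 10.60 in CD45High cells, with the KO CD25High array below the other 3. Trat1, an adaptor that stabilises the complex, differed by -0.48. Cd2, an adhesion receptor, was not called at 0.40. The lower calls were 1 under the 8-array fit, 1 to 4 when each resting array was left out, 3 without the genotype block and 3 without normalization between arrays.

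Genes of the adenosine and cyclic AMP pathway moved both ways, with 3 of 11 tested higher and 4 lower and a median of -0.18. The higher ones were Nt5e, the prostaglandin E2 receptor gene Ptger2 and Crem, a cyclic AMP-responsive factor. Ptger2 read 5.80 and 6.13 in CD25High cells and was at least 2.14-fold above its undetected level in CD45High cells (adjusted p 0.000106). The lower ones were the phosphodiesterases Pde7a (-1.22) and Pde4d (-0.69), which degrade cyclic AMP, and the cyclases Adcy6 (-1.03) and Adcy7 (-0.87), which make it. Pde7a read 5.81 and 5.86 in CD25High cells and 7.0 and 7.11 in CD45High cells, a difference of -1.22 (SE 0.13, adjusted p 0.000371). Creb1 and Pde2a were not called at -0.41 and 0.31. Under the 8-array fit 2 were higher and none lower, and when each resting array was left out in turn 2 were higher and 1 to 4 lower.

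Interferon-stimulated genes, which mount antiviral defence, were lower in 7 of 26 tested members and higher in none, while the median of the list was -0.09, near that of all genes. Oas2, which makes an activator of RNA degradation, read 8.17 and 7.74 in CD25High cells and 9.41 and 9.47 in CD45High cells, a difference of -1.49 (SE 0.15, adjusted p 0.000339). Its relative Oasl2 differed by -0.82 (SE 0.14, adjusted p 0.00452), Cmpk2 by -0.65 (SE 0.13, adjusted p 0.00944) and Rsad2, which encodes viperin, by -0.53 (SE 0.13, adjusted p 0.0225). Ifit3, which binds foreign RNA, and Irf7, a factor that amplifies interferon production, differed by -0.51 and -0.50. Rsad2 read 8.07 and 7.42 in CD25High cells and 8.56 and 7.99 in CD45High cells, so the groups overlapped and the call rested on the pairing. Bst2 and Ifit2 were not called at -0.71 and -0.51. The direction depends on the scaling: without normalization between arrays the median was 0.04 and 2 members were lower. The lower calls were 0 under the 8-array fit, 1 to 6 when each resting array was left out and 1 without the genotype block.

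The core of the interferon-stimulated response element, GAAA on either side of any 2 bases, which interferon regulatory factors are known to bind, was searched on both strands of the same promoters, again after the values were seen. Of the 7 genes called lower, 5 had a promoter in the table, and Ifit3 and Rsad2 held a match. The windows around the first match of each are shown, with the match in capitals as read on the gene's strand, Ifit3 on the plus strand of chr19:34583358-34583397 and Rsad2 on the minus strand of chr12:26456548-26456587 in GRCm38.p6.
Ifit3: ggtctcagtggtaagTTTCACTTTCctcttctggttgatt
Rsad2: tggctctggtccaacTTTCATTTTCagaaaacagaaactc
Both windows hold the motif on the opposite strand and therefore show TTTC on either side of the spacer. Neither promoter held TTCNNNGAA, and the Cish and Foxp3 promoters held no interferon response core. The motif occurred in 3.44% of all promoters. By gene it occurred in 3.8% of the tested genes with a promoter and in 9 of the 17 tested interferon-stimulated genes with one, whether or not they were called.

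The remaining lists are those of heat shock and sex-linked genes. Of 10 tested heat shock genes, with a median of 0.09, Hspe1, a mitochondrial chaperonin, was higher by 0.50 (SE 0.13, adjusted p 0.0321), and Hspd1 and Hspa1a were not called at 0.48 and -0.43. The Hspe1 call was absent under the 8-array fit, without the genotype block, without the filter on dim probes and when any 1 resting array was left out. Of 5 tested sex-linked genes, with a median of -0.38, the Y-linked Ddx3y and Eif2s3y were lower in CD25High cells, with differences of -0.54 (SE 0.15, adjusted p 0.0365) and -0.48 (SE 0.13, adjusted p 0.0357). Both genes were detected on all 4 resting arrays. Neither was called without normalization between arrays, and neither under any of the settings that lost the Hspe1 call.

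The resting comparison was then set against the same comparison after stimulation for 30 min, which uses other arrays. Of the 1922 probes called at rest, 1426 (74.2%) had the same sign in both stimulated pairs and 1670 (86.9%) in the WT stimulated pair. The mean difference at rest correlated with that after stimulation at 0.635 over the 10405 probes, and at 0.68 with the WT stimulated pair alone. The median of the probes called higher was 0.78 at rest, 0.62 in the stimulated WT pair and 0.89 in the stimulated KO pair. For the probes called lower it was -0.62 at rest, -0.55 and -0.45. Foxp3 differed by 5.56 and 5.81 in the stimulated pairs with probe ILMN_2635132, WT first, Socs2 by 5.20 and 4.66 and Cish by 3.07 and 3.07. Pdlim4 differed by -3.89 and -2.36. The Foxp3 probes did not all move alike. Probe ILMN_1225330 read 9.42 in stimulated WT and 5.78 in stimulated KO CD25High cells, against 9.34 and 9.16 at rest, so the stimulated KO CD25High array was the low one. Probe ILMN_2917180 read 10.98 and 10.99 on those stimulated arrays.

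The change of the difference itself was tested across all 8 arrays. It was called for 0 of 11047 probes (0%) by limma, with 1055 probes at an unadjusted p under 0.05 and a lowest adjusted p of 0.262. In data simulated for these 11047 probes that test recovered, at the median of 20 sets, 0% of 2-fold and 0% of 4-fold changes, so the count of 0 does not show that the differences stayed the same. Without the stimulated KO CD25High array 267 probes were called (2.42%), 114 with a higher and 153 with a lower difference at rest. Klrd1 was among them. It read 5.98 and 5.94 in CD25High cells and 8.32 and 8.23 in CD45High cells at rest, and 7.96 and 8.05 against 8.17 and 8.63 after stimulation. The difference at rest minus that after stimulation was -1.92 (SE 0.24, adjusted p 0.309 over 8 arrays and 0.00668 over 7). The Itgae probe with the widest gap at rest moved from 4.83 and 5.26 at rest to 3.05 and 4.76 after stimulation, with adjusted p 0.576 over 8 arrays and 0.0115 over 7. The gap of Itgae probe ILMN_2699898 went from 4.50 and 5.20 to 3.12 and 4.54. Itgae probes ILMN_2628899, ILMN_2628900 and ILMN_1249573, not detected in CD45High cells at rest, read lower on both stimulated CD25High arrays than at rest. ILMN_2628899 went from 8.22 and 8.43 to 5.84 and 5.40 in CD25High cells. The calls over 7 arrays rest on 1 residual degree of freedom and on the WT stimulated pair.

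**Figure D4:**
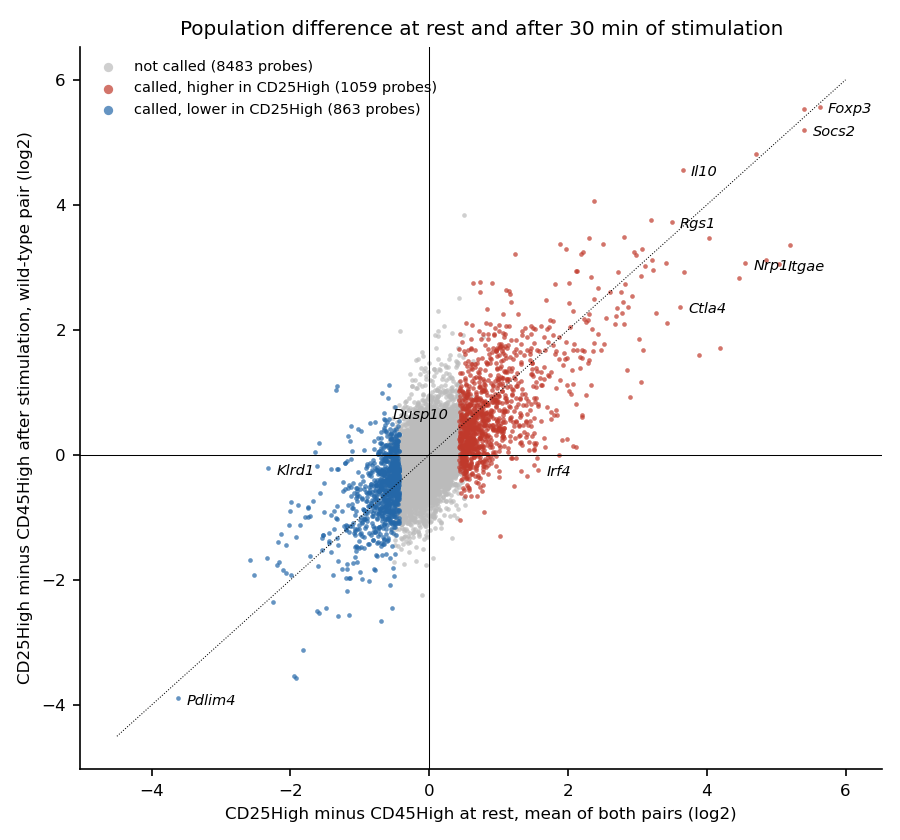
The CD25High minus CD45High difference at rest (x axis, log2, mean of both pairs) is plotted against the difference in the WT pair after stimulation for 30 min (y axis, log2), 1 point per probe tested at rest, with colours as called at rest and the dotted line marking equal differences. Foxp3, Socs2 and Pdlim4 lie near the line, Klrd1 lies near 0 on the y axis, and Irf4 and Dusp10 lie on opposite sides of 0 on the axes.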

How the data were processed

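Gene expression was measured on Illumina MouseRef-8 v2.0 arrays, of which the 4 unstimulated ones enter the comparison. Samples were grouped by population, genotype and stimulation as the labels give them. Per the file headers, the deposited table gives for each of 25697 probes an unnormalized linear intensity averaged over beads, the signal of its bead standard error, the count of beads and a detection p-value. The authors also deposited log2 values of 14533 probes, which correlate with those computed here at 0.999999 or above. They differ from them by at most 0.0626, so their scale is log2, quantile normalized and not centred. Per the submitters' processing notes limma was used, with no version named.

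Intensities were processed here with neqc of limma 3.58.1 in R 4.3.3 (background correction from the detection p-values, offset 16, quantile normalization over all 8 arrays). Probes whose detection p was under 0.01 on 2 or more resting arrays were tested with lmFit and eBayes on population with genotype as a block, leaving 1 residual degree of freedom, and p-values were adjusted by Benjamini-Hochberg over all 10405 probes. The pairing by genotype comes from the labels, and the differences of the 2 pairs correlated at 0.823 across probes. The change between rest and stimulation came from all 8 arrays with 4 blocks and 2 residual degrees of freedom. In data simulated for 10405 probes the fold changes were recovered without bias, but false calls were a median of 8.57% and up to 30.3% of the calls in a set, above the nominal 5%.

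Symbols were current for 20733 probes, updated through RefSeq for 3872 and kept as deposited for 1092. Lists are described by the brightest probe per gene. The members and the 26 gene lists were chosen with earlier results of these data known. Genes were named by rule: per direction the 15 genes with the largest difference among called probes with the same sign in both pairs, up to 6 called members of each list and the 2 largest that were not called, and all probes of Foxp3, Il2ra, Socs2 and Lef1. Some genes that this rule names are not reported here. Alternatives were other background corrections, normalizations, filters, variance priors and fits, and leaving out each array. The fits that leave out an array have no genotype block. Promoters were searched with python 3.11.15.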

Additional observations from a re-analysis of the deposited data

Results flagged for a closer look

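For 12 named probes every resting pair and every stimulated pair lay on opposite sides of 0, and 5 of these were called at rest. The test of the change itself passed for 0 of the 12 over the 8 arrays. Over the 7 arrays without the stimulated KO CD25High array, where 1 residual degree of freedom is left, it passed for 4, Irf4, Dusp10, Cxcr4 and Hspa1a. Irf4, a transcription factor of activated T cells, was higher in CD25High cells at rest by 1.57 (WT pair 1.13, KO pair 2.00), and differed by -0.24 and -0.38 after stimulation (adjusted p of the change by limma 0.384 over 8 arrays and 0.0355 over 7). Dusp10, a phosphatase of stress kinases, was at -0.65 at rest (WT pair -0.44, KO pair -0.87) and at 0.68 and 0.80 after stimulation (0.384 and 0.038). Rgs3 was at 0.70 at rest and at -0.32 and -1.66 after stimulation (0.489 and 0.0635). Rgs10 was at 0.58 at rest and at -0.39 and -0.12 after stimulation (0.486 and 0.0644). The Y-linked Ddx3y was at -0.54 at rest and at 0.50 and 0.20 after stimulation (0.509 and 0.0765).

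The other 7 were not called at rest. Hspa1a, a heat shock protein, was at -0.43 at rest and at 1.99 and 1.71 after stimulation (0.262 over 8 arrays and 0.00561 over 7). Cxcr4 was at -0.34 at rest and at 0.85 and 1.03 after stimulation (0.391 and 0.0472). Prf1 was at -0.54 at rest and at 0.09 and 0.58 after stimulation, Tob1 at -0.34 and then at 0.28 and 0.25, and Egr2 at 0.36 and then at -0.26 and -0.32. Gimap1 was at 0.23 at rest and at -0.54 and -0.32 after stimulation, and the Y-linked Uty at -0.27 and then at 0.56 and 0.43. The adjusted p of the change for these last 5 was 0.516 to 0.542 over 8 arrays and 0.125 to 0.402 over 7. With 1 array a group, no group was large enough to look for a single array that lies apart from the others of its group.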

How the results depend on the processing

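The count of 1922 probes, 1059 higher and 863 lower in CD25High cells, kept within 1.5 times under these 8 alternatives: no background correction (1727), cyclic loess (2169), the 4 arrays normalized alone (1928), the deposited log2 values (1974), a stricter filter (2015), a trended (2448) or robust (1912) variance prior and means over the probes of a gene (1941). The fit without the WT CD25High array and the 7-array fit, both given below, also kept within it. Without normalization between arrays 1319 were called, with 250 lower. Without a filter on dim probes 993 were called, 622 higher and 371 lower, over more probes tested. Without the pairing, that is with no replicate block for genotype, 1256 were called, 451 of them lower. The 8-array fit called 263, 197 higher and 66 lower. Leaving out each resting array in turn gave 529 to 1480 calls, 381 to 824 higher and 135 to 656 lower. The counts were 1480 without the WT CD25High array, 1055 without the KO CD25High array, 535 without the WT CD45High array and 529 without the KO CD45High array, with fewer samples in each fit, and a lone sample is then assumed to vary like the others. The 7-array fit, chosen after seeing the data, called 1907, but its error comes from the resting pairs alone, as in the 4-array test, so this is no separate check. The change between rest and stimulation was called for 0 probes and for 267 without the stimulated KO CD25High array. For these shifts the cause was not tested where no reason is given. Of 185 named probes 136 were called, and 64 kept their sign and side of the threshold under all 17 alternatives. The difference of Gadd45b probe ILMN_2900653 ran from -0.25 without the WT CD25High array to 1.94 without the KO CD25High array. Both values come from fits without the genotype block. None of the other 135 called probes named changed sign. Probes not well above background on both arrays of a population give only a bound.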

Other observations

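Some genes differed between the populations by unlike amounts in the WT and KO pairs. With 1 array a group, the spread between single arrays and an effect of genotype cannot be told apart, so these values were not tested. They were chosen after the values were seen, from the probes whose pairs lay furthest apart. St6galnac2, a sialyltransferase of glycoproteins, read 4.87 in WT and 6.99 in KO CD25High cells, and 4.32, not detected, in WT and 8.22 in KO CD45High cells (log2 intensity). It was thus higher on the resting KO array of each population. After stimulation it read 4.48 and 6.12 in CD25High cells and 5.47 and 4.79 in CD45High cells, WT first, so the CD45High arrays were reversed. Nr4a2, a transcription factor induced by receptor signals, stood at 6.47 on the WT CD25High array against 4.80 to 5.11 on the other resting arrays. Ly86, which pairs with a Toll-like receptor homolog on B and myeloid cells, read 6.14 and 5.51 in CD25High cells and 4.84 and 5.39 in CD45High cells, WT first, and the 4.84 was not detected. The class II gene H2-DMb2 had pair differences of 1.59 and 0.55, both in the direction of the B cell markers, and was called higher in CD25High cells (adjusted p 0.0122, limma).

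Csf2 and Pdgfa, chosen after their values were seen, were near or below detection at rest and were not in the resting test. Csf2, which encodes the cytokine GM-CSF, was detected on none of the 4 resting arrays and on neither stimulated CD45High array, and read 7.58 and 7.19 in stimulated CD25High cells. Pdgfa, a growth factor chain, was detected at rest on the WT CD25High array alone, at 4.92, and on neither stimulated CD45High array, and read 8.20 and 7.46 in stimulated CD25High cells. The adjusted p of the change between rest and stimulation was 0.262 for both over the 8 arrays. Over the 7 arrays without the stimulated KO CD25High array, a fit with 1 residual degree of freedom, it was 0.00149 for Csf2 and 0.000804 for Pdgfa.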
